A study of Mus musculus with 17 samples.

Results

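The paraoxonase genes Pon1, Pon2 and Pon3 were read in 17 RNA sequencing libraries of AT2 (alveolar type 2 epithelial) cells isolated by flow sorting, which make the lung's surfactant. The 3 genes were found by symbol among the 43430 Ensembl gene rows of each count table, and all 3 passed the filter on low counts in both tables. They were chosen because Pon1 was much lower after bleomycin in these same libraries, so the bleomycin values of the 3 genes are given as a description. No p-value is given for their difference, and their calls stand only beside the share of all genes called. The ISRIB comparison played no part in the choice.

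All mice were C57BL/6J and 2 months old. The poly(A) libraries came from uninjured mice 24 h after vehicle (4 libraries, titled saline) or after ISRIB (4 libraries), an integrated stress response inhibitor. The total-RNA set holds 4 libraries of naive mice and 5 libraries taken at day 14 of bleomycin, a lung-injuring drug. All 9 total-RNA libraries carry the treatment label vehicle and saline in their titles, bleomycin included. The labels used here give no sex, no dose and no statement that each library is 1 animal, so p-values measure the spread between these libraries. Kit and RNA input (3 ng against 0.35 ng) differed between the sets, so levels are set side by side and not tested across them.

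Paraoxonases are calcium-dependent enzymes that open lactone rings and hydrolyse some esters, and are named after paraoxon, an organophosphate that PON1 breaks down. PON1 is known best as a liver product that circulates on high-density lipoprotein (HDL) and protects lipids from oxidation. PON3 has been reported on HDL and inside cells, while PON2 stays in cells, where it is associated with the endoplasmic reticulum and mitochondria. In airway epithelium, paraoxonases are known for inactivating the lactone signals that bacteria exchange.

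The 3 genes lie side by side on chromosome 6 (GRCm38, GENCODE M21), within 130.4 kb and all on the minus strand. Pon1 (ENSMUSG00000002588) spans 5168090 to 5193946, Pon3 (ENSMUSG00000029759) spans 5220852 to 5256286, and Pon2 (ENSMUSG00000032667) spans 5264147 to 5298455. The gap from Pon1 to Pon3 is 26905 bases and that from Pon3 to Pon2 is 7860 bases. The longest coding transcript of each gene has 9 exons. The longest run of bases shared exactly by these transcripts was 23 for Pon1 and Pon2, 14 for Pon2 and Pon3, and 12 for Pon1 and Pon3. Exons of Pon2 share 680 bases with a gene model on the opposite strand, Gm44424, and the exons of Pon1 and Pon3 share none with another gene.

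RefSeq promoter windows (GRCm38.p6, 250 bases before to 50 after the start site) were at hand for all 3 genes. They are shown because the genes are neighbours with unequal differences after bleomycin. Only the bases upstream of every annotated start are printed, 5′ to 3′ on the minus strand. Capitals mark matches, on either strand, to GGGCGG for the GC box, to CCAAT for the CCAAT box and to TGANTCA for AP-1. The Pon1 stretch covers chr6:5193988-5194196, the Pon3 stretch chr6:5256287-5256483 and the Pon2 stretch chr6:5298456-5298590.
Pon1: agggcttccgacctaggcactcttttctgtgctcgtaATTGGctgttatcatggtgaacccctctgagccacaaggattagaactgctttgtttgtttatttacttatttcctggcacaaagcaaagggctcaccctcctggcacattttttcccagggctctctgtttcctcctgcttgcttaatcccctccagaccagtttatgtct
Pon3: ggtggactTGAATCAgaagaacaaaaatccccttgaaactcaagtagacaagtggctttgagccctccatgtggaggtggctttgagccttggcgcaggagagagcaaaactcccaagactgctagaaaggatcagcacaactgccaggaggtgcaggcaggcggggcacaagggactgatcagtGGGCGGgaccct
Pon2: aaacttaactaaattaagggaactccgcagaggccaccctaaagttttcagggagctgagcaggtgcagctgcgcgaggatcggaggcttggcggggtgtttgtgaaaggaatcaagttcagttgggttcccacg
The windows differ in base composition. The Pon1 window holds 3 CpG dinucleotides and 49.3% G and C, the Pon3 window 7 and 57.7%, and the Pon2 window 31 and 67.7%. The medians over all 32851 windows were 7 CpG and 52.7%. The GC box letters occur in 35.7% of all windows, with 3 matches in the window of Pon2, 1 in that of Pon3 and 0 in that of Pon1. CCAAT occurs in 37.4% of windows with 2 matches in that of Pon1 and 0 in the other windows. The AP-1 letters occur in 7.81% of windows, with 1 match in that of Pon3. The xenobiotic response core GCGTG occurs in 32.4% of windows, with 1 match in that of Pon2, and the antioxidant response core TGACNNNGC in 12.4%, with 1 match each in those of Pon2 and Pon3. TATAAA (13.6% of windows) and the PPAR direct repeat (0.0396%) match none of the 3 windows. These matches describe letters and do not show binding.

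Total counts ran from 10493574 to 15727139 in the poly(A) libraries and from 3295257 to 6333166 in the total-RNA libraries. Genes detected numbered 17108 to 19763 in naive and 13940 to 17112 in bleomycin libraries, with the fewest in bleomycin 4. Mitochondrial and ribosomal-RNA-like genes took 21.6% to 30.2% of counts in naive and 16.6% to 23.8% in bleomycin libraries. With those genes left out, the log2 fold changes after bleomycin were -3.67 for Pon1, -0.33 for Pon2 and -0.55 for Pon3, and the part of the number of genes detected was not tested. All 12 AT2 markers, Sftpc among them, were detected and tested in both sets, and their summed level was 188754 to 200468 CPM (counts scaled to a common library total) in the poly(A) libraries. ISRIB 1 and ISRIB 3 resembled each other, as did ISRIB 2 and ISRIB 4. Chi-squared divided by its degrees of freedom, which is near 1 for counting error alone, was 3.5 and 4.38 within these pairs and 7.80 to 8.94 between them. No 2 replicates agreed within counting error. Bleomycin 1 and bleomycin 5 differed most (46.2).

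In uninjured AT2 cells all 3 genes were well expressed, with Pon3 the most abundant. In vehicle libraries Pon3 stood at the 97.2 percentile of all tested genes by RPKM (CPM per kilobase of the union of annotated exons), Pon1 at the 93.4 percentile and Pon2 at the 86.5 percentile. The RPKM were 90.2 ± 5.34 for Pon3, 43.4 ± 6.36 for Pon1 and 22.3 ± 0.76 for Pon2 (SD, n = 4), and no vehicle library of 1 gene overlapped those of another. In naive total-RNA libraries the RPKM were 60.6 ± 3.66 for Pon3, 13.4 ± 3.39 for Pon1 and 9.57 ± 0.97 for Pon2 (SD, n = 4). The percentiles in the naive libraries were 96.7 for Pon3, 80.6 for Pon1 and 71.9 for Pon2. There Pon3 again lay above both others, while Pon1 (9.95 to 18.1) and Pon2 (8.20 to 10.5) overlapped. Pon3 ranked first in all 17 libraries. The order of Pon1 and Pon2 changed with the length used in 5 of the 17 libraries, namely ISRIB 2 and 4 and naive 1, 3 and 4. Per kilobase of the longest coding transcript (1513 bases for Pon1, 2409 for Pon2 and 1837 for Pon3), a length chosen after seeing the data, the naive values were 25.6 ± 6.50 for Pon1 and 29.1 ± 2.96 for Pon2. By that length the vehicle values were 83.1 ± 12.2 for Pon1 and 67.95 ± 2.32 for Pon2, with Pon1 higher in all 4 vehicle libraries by either length. In all 5 bleomycin libraries Pon2 was higher than Pon1 by either length.

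ISRIB was set against vehicle in uninjured cells at 24 h. None of the 3 paraoxonase genes passed the test, edgeR's quasi-likelihood test at a Benjamini-Hochberg adjusted p under 0.05 over 12054 genes, by which 2.2% of genes tested were called (1.1% higher and 1.1% lower). Of the 3, 0 had an unadjusted p under 0.05, as 16% of all genes did, and DESeq2 and limma-voom called 0 as well. All 3 fitted log2 fold changes were slightly negative and within the spread of the replicates. The groups overlapped for all 3, while 8.65% of all genes had groups that did not overlap.

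For Pon1, the vehicle libraries 1 to 4 held 107, 136, 114 and 146 CPM. The ISRIB libraries 1 to 4 held 138, 94.3, 137 and 98.2 CPM. ISRIB 1 and ISRIB 3 fell inside the vehicle range, while ISRIB 2 and ISRIB 4 lay below every vehicle library, so the groups overlapped. The means were 126 ± 18.4 and 117 ± 23.9 CPM (SD, n = 4 each), and the log2 fold change was -0.10 (SE 0.12, edgeR adjusted p 0.748). Its 95% interval ran from -0.39 to 0.19. The pairing of ISRIB libraries seen over all genes thus also appeared in Pon1. The summed level of 10 club cell markers, genes of secretory airway cells, was 5203 and 5032 CPM in ISRIB 1 and ISRIB 3, and 4114 and 3248 CPM in ISRIB 2 and ISRIB 4. In the vehicle libraries it ran from 5027 to 5372 CPM with no such gap. The split was not particular to club cell markers. The AT2 marker sum was 200468 and 200153 CPM in ISRIB 1 and ISRIB 3, and 188754 and 191959 CPM in ISRIB 2 and ISRIB 4. Markers of the state between AT2 and alveolar type 1 cells went the other way, at 729 and 755 against 830 and 841 CPM. The ciliated cell marker sum did not split in this way. The part of these marker levels in the Pon1 values was not tested.

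For Pon2, the gene whose product stays in the cell, the vehicle libraries held 164, 159, 161 and 171 CPM. The ISRIB libraries held 169, 153, 161 and 166 CPM. This was the least variable of the 3 genes, with a coefficient of variation of 3.41% over vehicle and 4.16% over ISRIB libraries, against 14.7% and 20.4% for Pon1. The log2 fold change was -0.01 (SE 0.05, edgeR adjusted p 0.943, 95% interval -0.14 to 0.11). The groups overlapped.

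For Pon3, the most abundant member, the vehicle libraries held 303, 298, 289 and 331 CPM. The ISRIB libraries held 309.8, 284, 321 and 281 CPM. Here too ISRIB 2 and ISRIB 4 were the lowest of the 8, by a small margin, and the groups overlapped. The log2 fold change was -0.03 (SE 0.06, edgeR adjusted p 0.870, 95% interval -0.17 to 0.11). Its coefficient of variation was 5.92% over vehicle and 6.49% over ISRIB libraries.

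**Figure D1:**
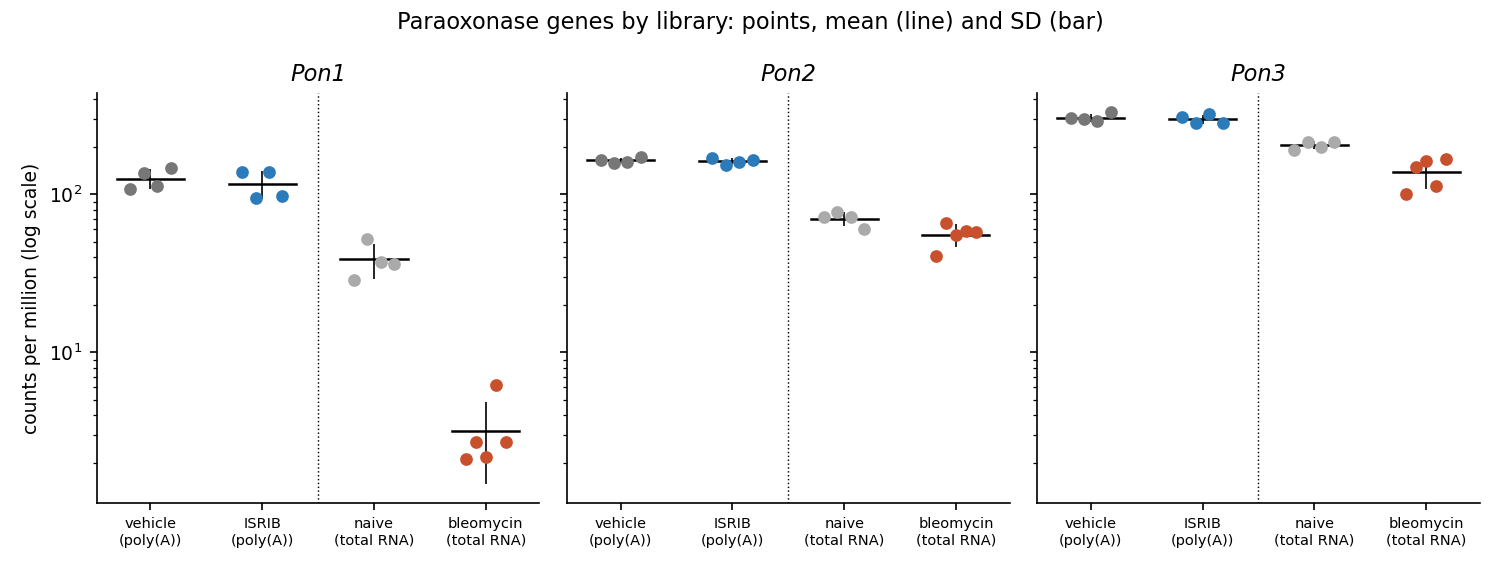
CPM (log axis) of Pon1, Pon2 and Pon3 in each library (points), with the mean (line) and SD (bar) of the 4 groups. Vehicle and ISRIB points overlap for all 3 genes, and the 5 bleomycin points of Pon1 lie between 2.12 and 6.19 CPM, below all 4 naive points.

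Bleomycin libraries were set against naive ones at day 14 of injury. Pon1 was on average 12.2 times lower in bleomycin libraries, Pon3 was 1.48 times lower, and Pon2 was 1.26 times lower with overlapping groups. Of the 3 genes, 2 (Pon1 and Pon3) were called lower by edgeR, where 9.31% of the 11223 genes tested were called lower 11.2% higher and 20.5% in either direction. Groups did not overlap for these 2 genes, nor for 19.7% of all genes (9.35% with bleomycin lower). The members were chosen from this contrast, so nothing is read from that count. In whole-population libraries, fewer cells expressing a gene and less RNA per cell cannot be told apart.

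For Pon1, whose product circulates on HDL, the naive libraries 1 to 4 held 28.8, 52.3, 37.5 and 36.4 CPM, from 86 to 245 counts. The bleomycin libraries 1 to 5 held 2.12, 2.71, 2.17, 6.19 and 2.69 CPM, from 8 to 20 counts. The highest bleomycin library lay below the lowest naive library, and each of the 5 held between 5.46% and 16% of the naive mean. The means were 38.8 ± 9.83 (n = 4) and 3.17 ± 1.71 CPM (SD, n = 5), and the log2 fold change was -3.68 (SE 0.28). Of the genes tested, 8 had a lower log2 fold change. Pon1 was chosen for its fall, so nothing is read from that rank. Bleomycin 4 stood above the other 4 bleomycin libraries. Its 20 counts allow 3.78 to 9.56 CPM (exact 95% Poisson interval, counting error only), which overlaps the intervals of bleomycin 1 (0.914 to 4.17 CPM), bleomycin 2 (1.52 to 4.46 CPM) and bleomycin 5 (1.57 to 4.31 CPM). It does not overlap that of bleomycin 3 (1.19 to 3.64 CPM). In RPKM, Pon1 went from 13.4 ± 3.39 to 1.10 ± 0.59.

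For Pon3, the naive libraries held 189.9, 216, 200.3 and 215 CPM. The bleomycin libraries held 101, 149, 164, 113 and 166 CPM. All 5 bleomycin libraries lay below all 4 naive libraries. Bleomycin 1 and bleomycin 4 were the lowest, at 49.0% and 55.2% of the naive mean, and the other 3 held 72.8% to 81.1%. The means were 205 ± 12.4 (n = 4) and 139 ± 30.0 CPM (SD, n = 5), a log2 fold change of -0.56 (SE 0.14). Pon3 remained the most abundant of the 3 genes, at 41.0 ± 8.87 RPKM.

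For Pon2, the naive libraries held 71.8, 77.1, 71.8 and 60.2 CPM. The bleomycin libraries held 41.0, 66.0, 55.3, 58.5 and 57.3 CPM. Bleomycin 2 lay above naive 4, so the groups overlapped, and bleomycin 1 was the lowest of the 9. The means were 70.2 ± 7.14 (n = 4) and 55.6 ± 9.13 CPM (SD, n = 5), with a log2 fold change of -0.33 (SE 0.14).

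The 3 genes did not share 1 order over the bleomycin libraries. Bleomycin 4 was the highest for Pon1, the next to lowest for Pon3 and the next to highest for Pon2. Bleomycin 1 was the lowest for all 3 genes. The make-up of the cluster's output differed between the groups. Pon1 took 15.9% ± 2.72 of the summed RPKM of the 3 genes in naive (SD, n = 4) and 2.32% ± 1.47 in bleomycin libraries (SD, n = 5). The Pon3 part was 72.7% ± 2.73 and 82.2% ± 3.42, and the Pon2 part 11.5% ± 1.32 and 15.4% ± 2.12. Parts of 1 sum are not independent, so a smaller Pon1 part makes the others larger. The mean levels of Pon3 and Pon2 themselves were lower in bleomycin libraries. The parts also depend on the exon length used. The sum itself was 83.6 ± 6.80 and 49.6 ± 9.48 RPKM. In the poly(A) libraries Pon1 took 27.8% ± 2.38 of the sum with vehicle and 26.5% ± 2.97 with ISRIB (SD, n = 4 each).

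**Figure D2:**
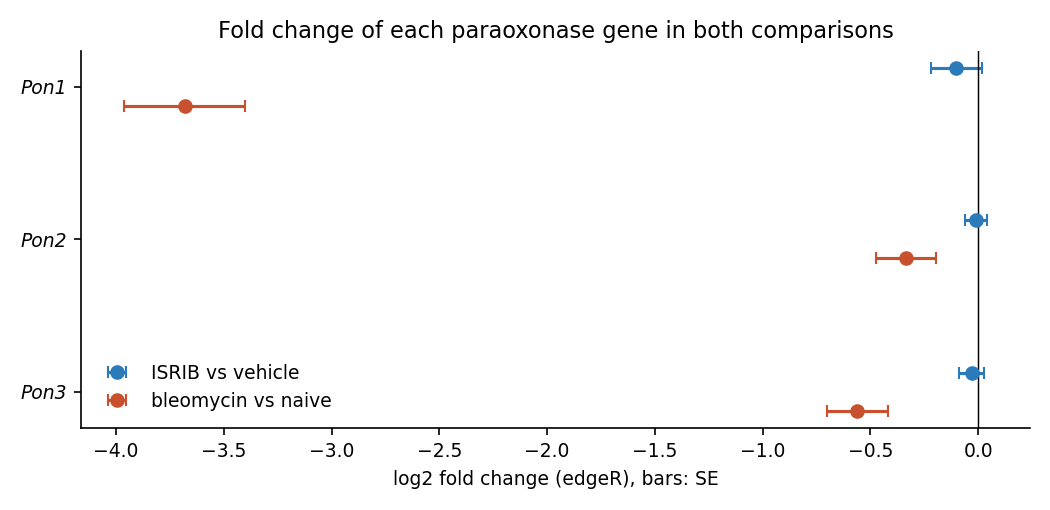
Log2 fold change (edgeR) of each paraoxonase gene after ISRIB (blue) and after bleomycin (orange), with bars for the SE. The 3 ISRIB values lie between -0.10 and -0.01, and after bleomycin Pon1 (-3.68) lies far below Pon3 (-0.56) and Pon2 (-0.33).

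**Figure D3:**
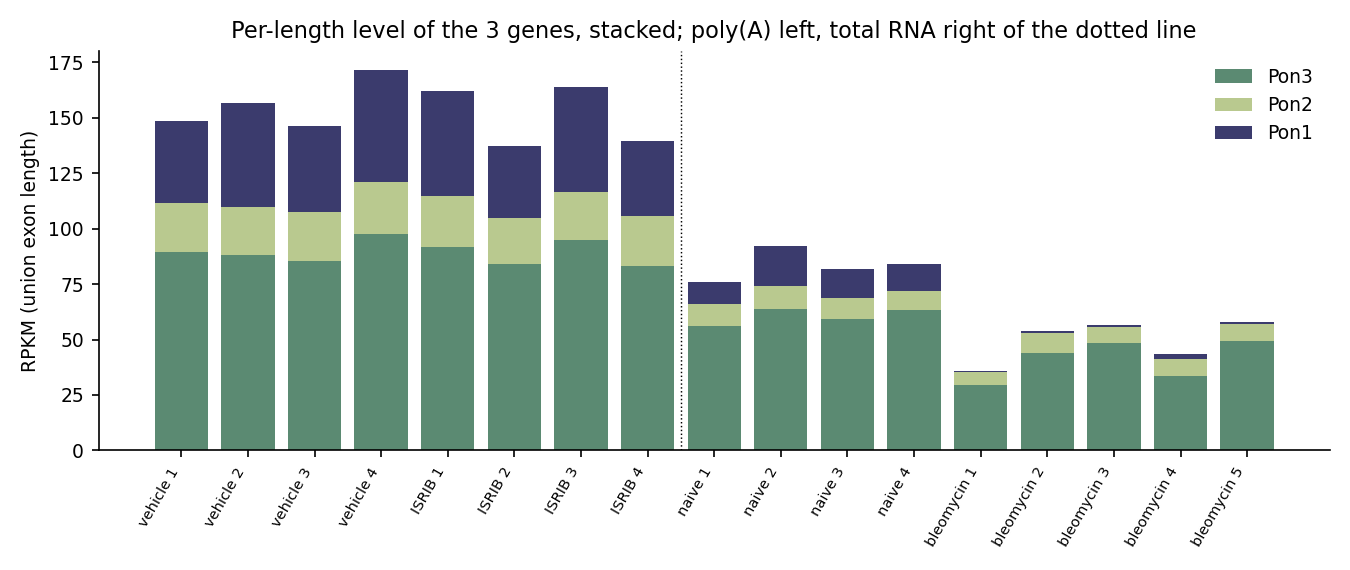
RPKM of Pon1, Pon2 and Pon3 stacked for each library, poly(A) libraries left and total-RNA libraries right of the dotted line. The Pon1 segment averages 15.9% of the bar in naive and 2.32% in bleomycin libraries.

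Levels of other cells' markers were read beside these values. Of 12 transitional epithelial markers, genes of the state between AT2 and alveolar type 1 cells, 11 were called higher and 1 lower after bleomycin, and their summed level went from 702 to 732 CPM in naive libraries to 1140 to 1553 CPM. Of the alveolar type 1 markers tested, 7 of 9 were called higher (sum 1289 to 1520 CPM in naive and 1988 to 2684 CPM in bleomycin libraries). Of the 12 AT2 markers, 3 were called higher and 1 lower. Their sum was 85874 to 93494 CPM in naive and 54311 to 94538 CPM in bleomycin libraries. Of all 9 libraries, bleomycin 3 had the highest AT2 sum and bleomycin 1, the lowest library for all 3 paraoxonase genes, had the lowest. Bleomycin 3 and bleomycin 1 held 2.17 and 2.12 CPM of Pon1, from 14 and 8 counts. They held 164 and 101 CPM of Pon3, and 55.3 and 41.0 CPM of Pon2. Among club cell markers 0 of 7 tested were called, with sums of 750.5 to 1298 and 931 to 1225 CPM. The 8 fibroblast markers (3 tested, all higher) summed to 3.87 to 10.1 CPM in naive and 17.5 to 115 CPM in bleomycin libraries, and Lum was at 0 in all 9. Ciliated cell markers (3 of 7 called higher) summed to 49.5 to 88.6 and 87.3 to 243 CPM, and endothelial markers (2 of 5 higher) to values between 19.97 and 28.2 and 22.5 to 79.5 CPM. The mesothelial marker tested, Msln, was called higher, within a list sum of 0.30 to 5.34 and 3.44 to 20.6 CPM. Macrophage markers (0 of 3 tested called, Marco and C1qa at 0) summed to 12 to 15.4 and 10.1 to 15.5 CPM. Lymphocyte markers (0 of 1 tested called, Cd3d and Ms4a1 at 0) summed to 1.79 to 8.76 and 1.32 to 9.59 CPM, and neutrophil markers (none tested, S100a8 at 0) to 0 to 0.60 and 0 to 1.80 CPM. After ISRIB, 1 of 12 AT2, 1 of 10 club cell, 1 of 8 ciliated cell, 1 of 4 macrophage and 2 of 12 transitional markers tested were called lower. The macrophage marker, Chil3, was near the floor, at 1.24 CPM with vehicle and 0.35 CPM with ISRIB. None of the alveolar type 1, lymphocyte, fibroblast, endothelial and mesothelial markers tested was called. Over all genes tested, 1.1% were called lower after ISRIB, and 11.2% were called higher and 9.31% lower after bleomycin. The part of these cell types in the paraoxonase values was not tested.

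The genes around the cluster were read to see whether they moved with it. Of 21 genes of the table within 1 Mb of either end, 9 passed the filter in each comparison. After bleomycin 2 of the 9 were called lower and 1 higher, where 9.31% of all genes tested were called lower and 11.2% higher. The median log2 fold change of the 9 was -0.50, the value of Gm26814, against 0.00 over all genes tested. The gene models Gm26814 and Gm26736 lie within the span of Ppp1r9a, so the 9 are not all separate stretches of the locus. The neighbour nearest to Pon1 is Ppp1r9a, a gene for an actin-binding scaffold protein, which points toward Pon1 from the other strand and ends 2428 bases from it. Ppp1r9a held 559.9 ± 43.3 CPM in naive (n = 4) and 351 ± 62.8 CPM in bleomycin libraries (n = 5), and fell with a log2 fold change of -0.68 (SE 0.13, edgeR adjusted p 0.00152). After ISRIB it was the 1 neighbour called of the 9, where 2.2% of all genes tested were called. Ppp1r9a held 175 ± 8.97 CPM with vehicle and 216 ± 17.9 CPM with ISRIB (n = 4 each). It rose with a log2 fold change of 0.30 (SE 0.06, edgeR adjusted p 0.0181). Casd1, a sialic acid acetyltransferase gene, fell from 40.0 ± 4.61 to 27.4 ± 4.24 CPM after bleomycin (log2 fold change -0.54, SE 0.16, edgeR adjusted p 0.0189). Col1a2, a fibroblast collagen gene, was called higher (2.72, SE 0.88, edgeR adjusted p 0.0334) with overlapping groups, 0 to 2.01 CPM in naive and 0 to 26.3 CPM in bleomycin libraries. The other neighbours did not pass in either comparison. After bleomycin they were Sgce (-0.54), Peg10 (-0.40), Gm26814 (-0.50), Gm26736 (-0.58), Pdk4 (0.03) and Slc25a13 (-0.09). After ISRIB, Sgce (-0.04), Casd1 (0.03), Peg10 (-0.41), Gm26814 (-0.42), Gm26736 (0.86), Pdk4 (0.42), Slc25a13 (0.20) and Col1a2 (0.12) did not pass either. Asb4, the gene next to Pon2, was below the filter in both sets.

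**Figure D4:**
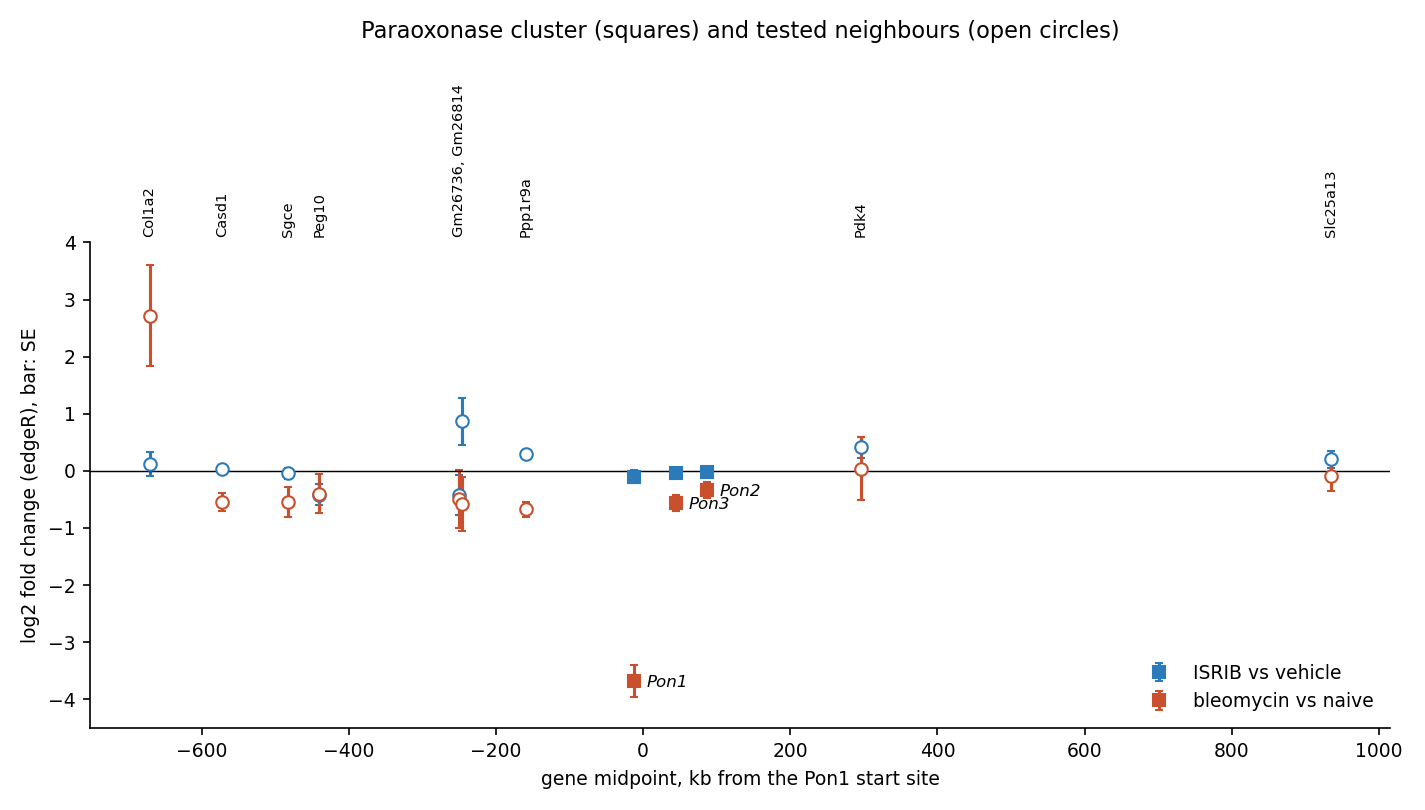
Log2 fold change (edgeR, bars SE) after ISRIB (blue) and bleomycin (orange) of the paraoxonase genes (squares) and the 9 tested neighbours (open circles), by the distance of the gene's midpoint from the Pon1 start site in kb. Pon1 (-3.68) lies below all neighbours, of which Ppp1r9a (-0.68) is the lowest after bleomycin.

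The genes whose profile over the 9 total-RNA libraries was most like that of Pon1 were looked up among 9278 genes with a mean of at least 5 CPM, leaving out predicted, mitochondrial and pseudogene symbols. Likeness was the root mean square difference of log2 CPM relative to the naive mean, with 0 for identical profiles. The nearest were Hes2 (0.80), a gene of the HES family of transcriptional repressors, Cst8 (0.83), a cystatin gene, Slc7a2 (0.91), a cationic amino acid transporter gene, Snora7a (0.96), a small nucleolar RNA gene, and Bex2 (0.96). Their log2 fold changes after bleomycin were -4.20, -2.96, -2.48, -2.97 and -2.22. None matched Pon1 closely, since each differed from it by 0.80 or more on the log2 scale. Pon1 rested on 8 to 20 counts per bleomycin library and Pon3 on 366 to 1056. The part of counting error in these differences was not tested. Pon3 had closer company, namely Degs1, Cth, Fbxl17, Tbcel and Acot7, at 0.11 to 0.12 and with log2 fold changes of -0.64 to -0.53. Like Pon3, these 5 genes were lower in bleomycin 1 and bleomycin 4 than in the other bleomycin libraries. They were picked for their likeness to Pon3 over these same libraries, so nothing is read from that shared pattern.

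**Figure D5:**
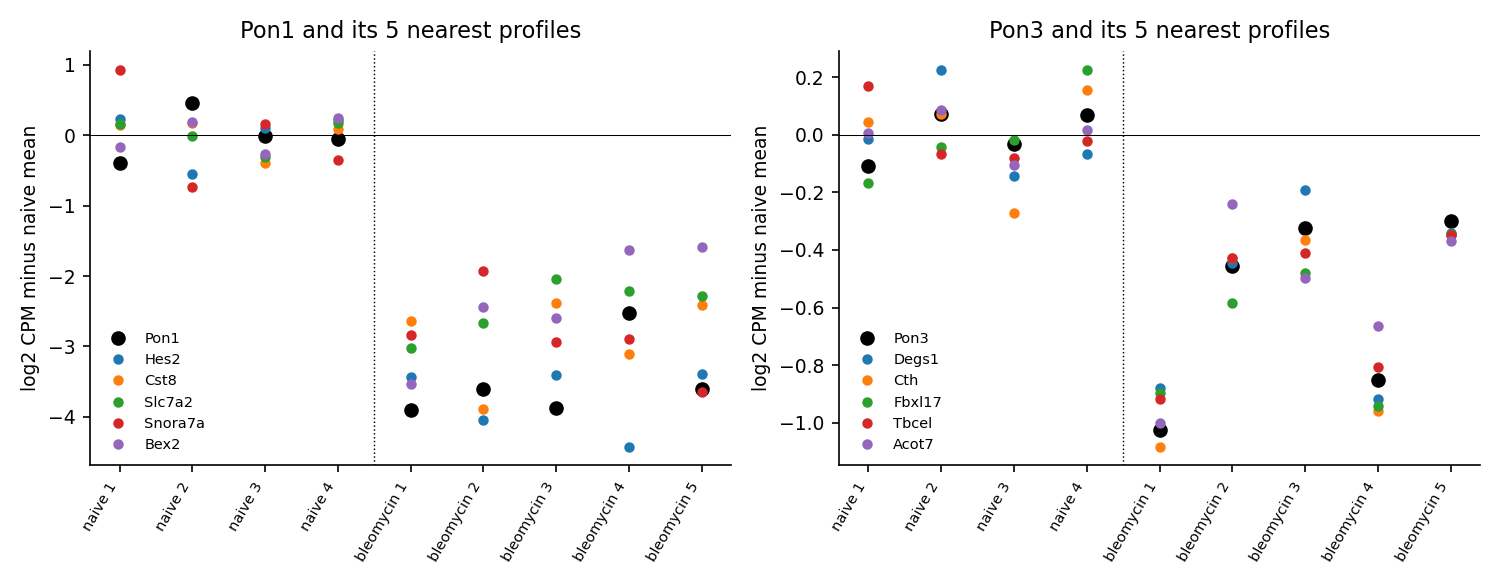
Log2 CPM minus the naive mean in each total-RNA library for Pon1 (left, black) and Pon3 (right, black) and their 5 nearest genes. All 6 genes of each panel lie below the naive mean in every bleomycin library, with a wider scatter around Pon1 than around Pon3. The genes were picked for likeness over these same libraries, so the shared direction comes with the choice.

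Genes that share a substrate class, carrier or proposed regulator with the paraoxonases were read from 5 lists. After ISRIB, 0 of 11 other lactone and ester hydrolases, 0 of 11 HDL and lipoprotein genes, 0 of 24 peroxide and superoxide enzymes and 0 of 32 xenobiotic enzymes tested were called. Of 19 proposed regulators tested, 1 was called higher and 1 lower. The regulator called higher was Jun, an AP-1 subunit, which rose (log2 fold change 0.40, SE 0.08, edgeR adjusted p 0.0137). After bleomycin, 2 of 8 hydrolases were called higher and 2 lower. The carboxylesterase gene Ces1d fell from 361 ± 22.0 to 182 ± 50.7 CPM (log2 fold change -0.98), while Ephx1, microsomal epoxide hydrolase (1.00), and Esd, esterase D (0.86), rose. Ces1e, another carboxylesterase gene (-1.40), was also called lower. Its mean was under the 5 CPM of the naming rule, and it was chosen after its value was seen.

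Of 28 HDL and lipoprotein genes listed, 11 were tested after bleomycin, of which 2 were called higher and 4 lower, with a median of 0.18. Apoa1, Apoa2, Apom and Lcat were among those below the filter. Clu, clusterin, which travels with PON1 on HDL, rose from 103 ± 4.32 to 466 ± 61.4 CPM (2.18), and Pltp, the phospholipid transfer protein gene, also rose (2.2). The lipase genes Lpl (-1.41) and Lipg (-0.95) fell. Of 23 peroxide and superoxide enzymes, 7 were called higher and 1 lower. Prdx4 (1.18), Gpx1 (0.73) and Prdx1 (0.62), which reduce peroxides, rose, and Cat, catalase, fell from 647 ± 70.9 to 368 ± 69.5 CPM (-0.82). Of 27 xenobiotic enzymes, 2 were called higher and 9 lower, with a median of -0.29. Fmo5, a monooxygenase gene (-1.72), Aox3, an aldehyde oxidase gene (-1.60), and Cbr2, a carbonyl reductase gene (1194 CPM in naive and 596 CPM in bleomycin libraries), fell, and Cyp2s1, a cytochrome P450 gene (2.27), rose. Of 19 proposed regulators, Ppara (-1.34), the nuclear receptor of fatty acids, Jun (-0.86) and Srebf2 (-0.53), the sterol sensor's factor, fell, and Nfe2l2 (0.47), which encodes NRF2, rose. Across the 5 lists 21.1% to 54.5% of tested genes were called, against 20.5% of all genes. The lists were chosen with earlier results of these data known and held 8 to 27 tested genes each, so nothing is read from these shares.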

How the data were processed

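The authors deposited raw read counts per Ensembl gene in 2 tables, 1 per kit. Per the submitters' processing notes, Trimmomatic 0.36, STAR 2.6.0, HTSeq 0.11.2 and build mm10 were used. Annotation release: not given in the sources used here, nor is the strand setting of the counting. Symbols, positions and exon lengths came from GENCODE M21 (GRCm38) by gene ID. Promoter windows came from RefSeq.

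Each contrast was fitted within its kit. Low genes were removed by filterByExpr (min.count 10, min.total.count 15), and the rest scaled with TMM factors and tested with edgeR 4.0.16 (R 4.3.3, quasi-likelihood, two-sided, group only, Benjamini-Hochberg over all genes tested). The procedure was tested on simulated data. The SE is the log2 fold change divided by the root of F. CPM use effective library sizes. Intervals of fold changes are t intervals on the residual degrees of freedom.

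Members and lists were chosen with earlier results of these data known. Named were the members, tested neighbours, the 5 nearest profiles of each called member and up to 4 called genes per list with non-overlapping groups and a mean of at least 5 CPM. Alternatives were RLE or no scaling factors, no ribosomal or mitochondrial genes, no filter, DESeq2 1.42.0, limma-voom (limma 3.58.1), a replicate block and leaving out each library. The regulator called lower after ISRIB is counted but not reported here by name.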

Additional observations from a re-analysis of the deposited data

Results flagged for a closer look

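Pon1 in the bleomycin libraries was singled out because 1 library lay far from the others. Bleomycin 4 held 6.19 CPM, and the nearest of the other 4 bleomycin libraries held 2.71 CPM, a gap of 0.855 of the group's whole range. Of 12 sets of values tested in this way (3 genes in 4 groups) this was the only one. Chance gives a flag in about 1 in 20 for each of the 12 sets, and the part of chance in this flag was not tested. The values are those by which Pon1 was chosen. Bleomycin 4 rested on 20 counts and had the fewest genes detected (13940). Without bleomycin 4 the Pon1 log2 fold change after bleomycin was -3.98.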

How the results depend on the processing

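After bleomycin all 16 alternatives kept the sign of each paraoxonase gene and moved it by less than the spread between replicates. Pon1 ran from -3.98 to -3.49 on the log2 scale, Pon3 from -0.66 to -0.46 and Pon2 from -0.40 to -0.24. After ISRIB none of the 15 alternatives called a member, with adjusted p of 0.476 to 0.982 for Pon1, 0.852 to 0.984 for Pon2 and 0.704 to 0.999 for Pon3. Signs near 0 turned for Pon2 with library totals only (0.0031), and for Pon2 and Pon3 on leaving out single libraries (ranges -0.0305 to 0.0139 and -0.063 to 0.0088). Pon1 ran from -0.19 to -0.01 after ISRIB over all alternatives.

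The count of genes called after ISRIB was 265, and was 648 with no filter, 400 with DESeq2 and 86 to 269 on leaving out single libraries (86 without vehicle 1, 102 without vehicle 2, 159 without ISRIB 4). The cause was not tested. After bleomycin it was 2304, and 1554 to 2589 over all alternatives. The deviations of same-numbered libraries had correlations of -0.11 to 0.08. The match was best with the own number for replicates 3 and 4 of the ISRIB set and for no replicate of the bleomycin set. These few pairs cannot decide whether the numbers pair the libraries. The replicate block gave 277 and 2187 genes called and called no member after ISRIB (Pon1 -0.11 after ISRIB and -3.65 after bleomycin). Depth limits Pon1 in bleomycin libraries, at 8 to 20 counts each.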
